A study of Mus musculus with 2 samples.

Results

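Pyruvate dehydrogenase and the tricarboxylic acid (TCA) cycle were described in perigonadal white adipose tissue (WAT) of PeriA Tg and WT mice through 31 genes, named by symbol. They encode the mitochondrial pyruvate carrier, pyruvate carboxylase, the pyruvate dehydrogenase (PDH) complex with its kinases and phosphatases, and enzymes of the TCA cycle and the malate-aspartate shuttle. Of these 31 genes, 30 had at least 1 probe set annotated to that symbol alone, with 66 probe sets in all, among 18193 genes so named on the array. *Mpc2* had no listed probe set.

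The Tg mice were female, heterozygous for a transgene in which the aP2 promoter/enhancer, active in adipocytes, drives human PeriA, and of C57BL/6 background. WT mice were female littermates without the transgene. Both groups were 30 weeks old, had received the high-fat diet (HFD) for 25 weeks, and were fasted overnight before the tissue was taken. RNA of 3 mice was pooled for each genotype and hybridised to 1 Affymetrix mouse genome array, so that there was 1 value per genotype, no error over mice, and no test.

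Pyruvate enters mitochondria through the carrier formed by MPC1 and MPC2. There the PDH complex turns it into acetyl-CoA, and pyruvate carboxylase turns it into oxaloacetate. Kinases (PDK1 to PDK4) phosphorylate and switch off the complex, and phosphatases (PDP1 and PDP2) switch it on again. The TCA cycle oxidises acetyl-CoA and feeds electrons to the respiratory chain, and in adipocytes its citrate is also exported as carbon for fatty acids, while oxaloacetate and phosphoenolpyruvate supply glycerol for triglyceride.

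The signal gives the brightness of a probe set in arbitrary units, on a linear and not a log scale, and signals of different genes cannot be compared. The signal log ratio (SLR) is the log2 of the Tg signal over the WT signal, and 0.3 and -0.3 are the sizes used in the methods. A gene was represented by its probe set with the highest mean log2 signal. All 30 genes passed the filter, a signal of at least 98.2 on 1 array or both, as did 11587 genes in all, and the 30 genes reached it on both arrays.

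Promoters are shown for the 3 members with the highest SLRs, *Pdp2*, *Idh3b* and *Fh1*, and for *Got1*, the only member with a match to AAGGTCA, the half-site bound by estrogen-related receptors. Each run is the 250 bases before the start of the gene, 5′ to 3′ on the strand of the gene, from RefSeq (GRCm38.p6). Capitals mark AAGGTCA, the core GCGCATGC of the NRF1 site, or the GC box GGGCGG, on either strand. The regions are chr8:104591222-104591471 (+) for *Pdp2*, chr2:130284452-130284701 (-) for *Idh3b*, chr1:175625636-175625885 (-) for *Fh1* and chr19:43524606-43524855 (-) for *Got1*.
Pdp2: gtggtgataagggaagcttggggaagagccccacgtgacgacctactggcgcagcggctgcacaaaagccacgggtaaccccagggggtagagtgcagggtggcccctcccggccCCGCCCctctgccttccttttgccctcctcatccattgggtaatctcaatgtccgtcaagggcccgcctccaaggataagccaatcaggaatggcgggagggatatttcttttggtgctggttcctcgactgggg
Idh3b: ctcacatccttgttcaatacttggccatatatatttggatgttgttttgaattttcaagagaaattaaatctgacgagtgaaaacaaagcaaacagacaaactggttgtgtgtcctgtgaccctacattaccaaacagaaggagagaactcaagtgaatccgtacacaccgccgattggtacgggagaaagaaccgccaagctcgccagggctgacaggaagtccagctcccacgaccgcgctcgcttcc
Fh1: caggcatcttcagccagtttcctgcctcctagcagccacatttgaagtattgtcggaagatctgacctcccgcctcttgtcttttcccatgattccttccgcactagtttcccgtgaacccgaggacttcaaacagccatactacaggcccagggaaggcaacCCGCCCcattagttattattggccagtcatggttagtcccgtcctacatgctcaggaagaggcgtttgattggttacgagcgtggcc
Got1: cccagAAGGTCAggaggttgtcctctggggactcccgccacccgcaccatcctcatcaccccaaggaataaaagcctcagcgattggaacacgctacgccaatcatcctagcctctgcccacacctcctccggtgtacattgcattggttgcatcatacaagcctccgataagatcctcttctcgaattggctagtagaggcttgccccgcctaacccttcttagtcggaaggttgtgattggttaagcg
*Pdp2* and *Fh1* each hold 1 GC box, and *Idh3b* holds none of the 3 motifs. Promoters were listed for 29 members, *Pdp1* and *Idh3a* not among them. AAGGTCA was present in 1 of these 29 and in 3.49% of the 9357 genes with a listed promoter that passed the filter. GCGCATGC was present in 1 member, *Ogdh*, and in 5.01% of the same genes. The GC box, added to the search after the values were seen, was present in 21 members and in 63.7% of those genes. A match describes only these letters in this window.

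Most of the 30 genes had a somewhat higher signal on the Tg array. Of them, 26 had an SLR over 0, against 53.2% of the 11587 genes, and 13 were over 0.3, or 43.3%, against 16.6% of all genes. The single member under -0.3 was *Pdk3*, whereas 16.9% of all genes were under -0.3. The median was 0.26 for the members and 0.02 for all genes, and no member was past 1 or -1, against 1.02% and 1.87% of all genes. The members are bright genes, and at high signals fewer genes lie past either size. Among the 22 members with a mean log2 signal of at least 11, a limit set after the values were seen, 10 were over 0.3 and none was under -0.3, against 11.5% and 7.68% of the 2293 genes as bright. The median was 0.28 for these members and 0.05 for these genes. The count over 0.3 is sensitive to that size, since 5 members lay above it by less than 0.05 and 2 lay below it by less than 0.05.

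**Figure D1:**
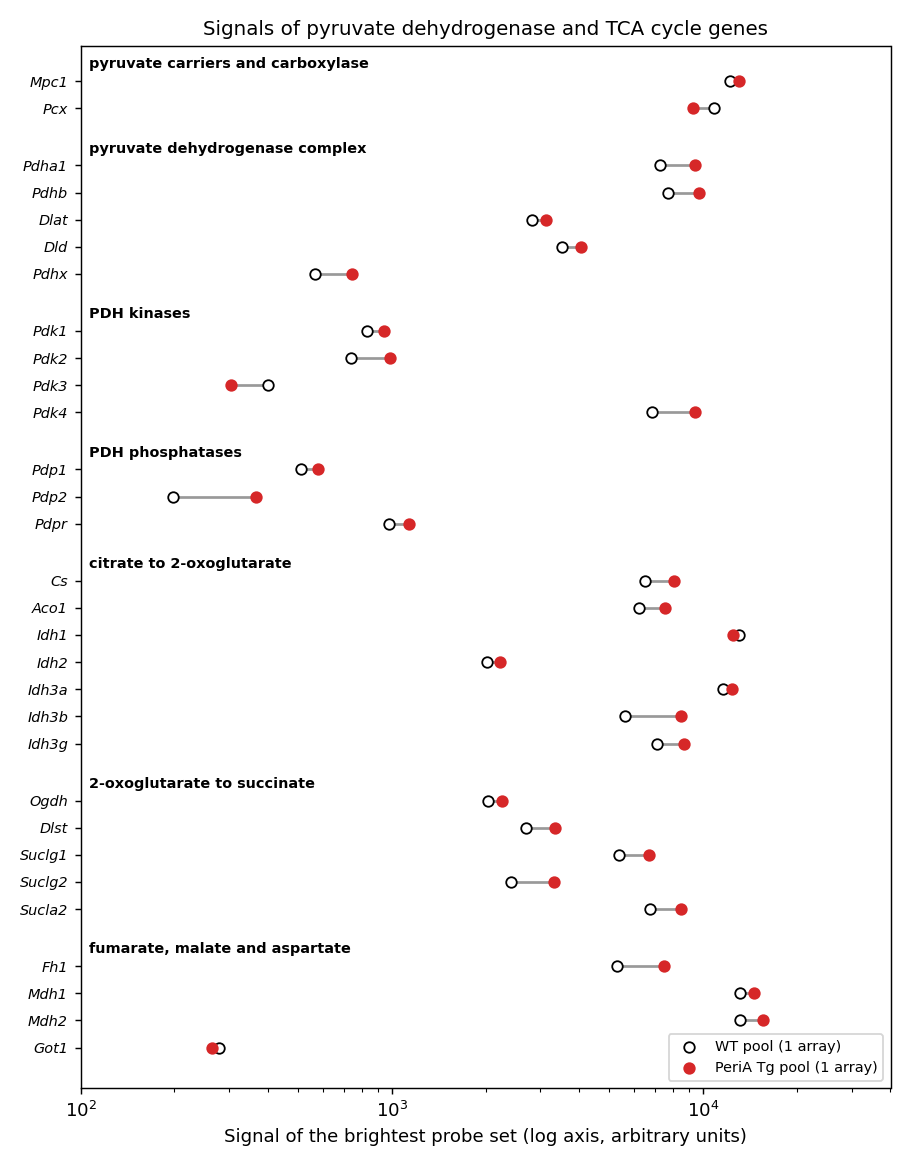
Signals of the brightest probe set of 30 genes on the WT array (open points) and the PeriA Tg array (red points), on a log axis, grouped by reaction, with 1 array of pooled RNA per genotype and no error bars. The Tg point lies to the right of the WT point in 26 genes, and to the left in *Pcx*, *Pdk3*, *Idh1* and *Got1*.

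At the entry of pyruvate, neither gene was past 0.3 or -0.3. *Mpc1*, a subunit of the pyruvate carrier, had 12173 (WT) and 13068 (Tg), an SLR of 0.10. *Pcx*, pyruvate carboxylase, had 10861 (WT) and 9287 (Tg), an SLR of -0.23, and was thus lower on the Tg array.
The array also carries control probe sets along the *Pcx* transcript, which were not used for the value of the gene. The 3′ one had 7296 (WT) and 6479 (Tg), an SLR of -0.17, close to the brightest probe set, and the 5′ one had 193.5 (WT) and 153.4 (Tg), an SLR of -0.34. The pair from the middle of the transcript had 456.8 (WT) and 146.1 (Tg), an SLR of -1.64, and 1340.1 (WT) and 384.9 (Tg), an SLR of -1.80. The size of the difference in *Pcx* therefore depends on the probe set, although all 5 were lower in Tg. The bacterial poly-A controls, labelled together with the RNA, are 4 transcripts, each with 2 sets of probe sets on the array. In all 4, the SLR of the 5′ probe sets was lower than that of their 3′ partners, by -0.33 to -0.70 as the mean of both sets. In the 4 pairs of hybridisation controls the median was -0.01. The part of this difference between the arrays in the values of the members was not tested.

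**Figure D2:**
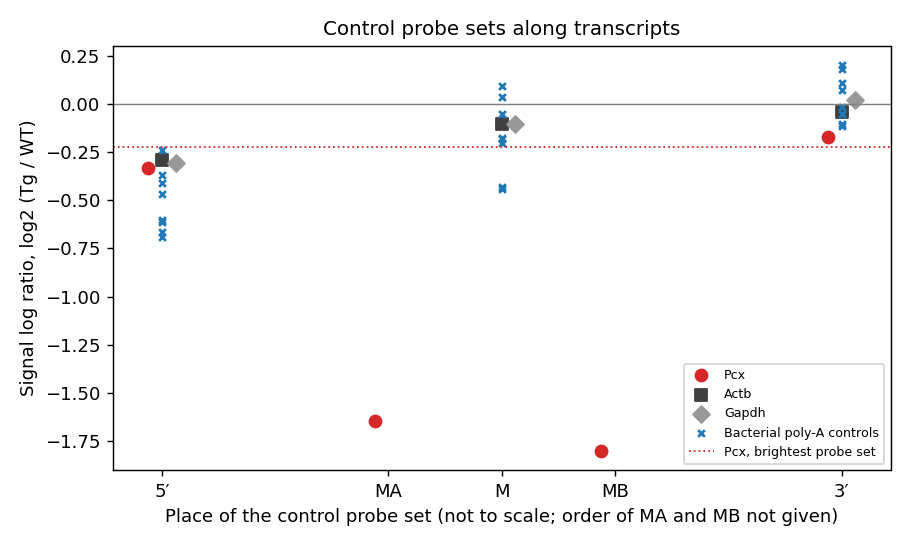
SLR, log2 (Tg/WT), of control probe sets at the 5′ end, in the middle (M, or MA and MB) and at the 3′ end of *Pcx*, *Actb*, *Gapdh* and 4 bacterial poly-A controls with 2 sets of probe sets each. The dotted line is the brightest other probe set of *Pcx*, at -0.23. The 2 middle probe sets of *Pcx*, at -1.64 and -1.80, lie far below all other points.

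All 5 genes of the PDH complex had SLRs over 0, with a median of 0.33, and 3 were over 0.3. This median depends on the choice of probe set, and was 0.20 with the median over the probe sets of each gene and 0.07 on second-brightest probe sets, which 3 of the genes had. *Pdha1*, the catalytic α subunit that the kinases phosphorylate, had 7289.7 (WT) and 9437 (Tg), an SLR of 0.37, but its other probe set had 2839 (WT) and 2271 (Tg), an SLR of -0.32. *Pdhb*, the β subunit, had 7706 (WT) and 9696 (Tg), an SLR of 0.33, and its dimmer probe set had 0.07. *Pdhx*, the protein that anchors the E3 subunit in the complex, had 564.8 (WT) and 744.5 (Tg), an SLR of 0.40.
The α subunit thus had 1 probe set past each size, in opposite directions. *Dlat*, the acetyltransferase core, had 2818 (WT) and 3121 (Tg), an SLR of 0.15, and its 3 probe sets lay between 0.12 and 0.24. *Dld*, the dihydrolipoamide dehydrogenase that this complex shares with the 2-oxoglutarate dehydrogenase complex, had 3519.5 (WT) and 4039 (Tg), an SLR of 0.20.

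The 4 kinase genes had values on both sides of 0. *Pdk4*, the kinase that increases in fasting and with fatty acid use, had 6846 (WT) and 9402 (Tg), an SLR of 0.46, which was above those of 92.0% of all genes that passed the filter. *Pdk2*, the widely expressed kinase, had 738.9 (WT) and 983.2 (Tg), an SLR of 0.41. *Pdk3* had 399.6 (WT) and 303.9 (Tg), an SLR of -0.40, and was the only kinase lower on the Tg array. *Pdk2*, *Pdk3* and *Pdk4* each rest on 1 probe set. *Pdk1*, a target of the hypoxia-inducible factor, had 833.2 (WT) and 940.3 (Tg), an SLR of 0.17, and its other 2 probe sets that passed the filter had 0.24 and 0.41.

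Of the phosphatases, *Pdp2*, known for its regulation by insulin, had 197.4 (WT) and 366.1 (Tg). This SLR of 0.89 was the highest among the members and above those of 98.6% of all genes, at a low signal and on a single probe set. *Pdp1*, the calcium-stimulated phosphatase, had 512.0 (WT) and 578.0 (Tg), an SLR of 0.17, and its other probe set had 518.0 (WT) and 453.3 (Tg), an SLR of -0.19. *Pdpr*, the regulatory subunit of the phosphatase, had 979.4 (WT) and 1132 (Tg), an SLR of 0.21, with 0.01 and 0.31 on the other probe sets that passed the filter. The direction of *Pdp1* thus depends on the probe set.

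Set side by side, the 4 kinases had a median SLR of 0.29 and the 3 phosphatase genes 0.21, a difference of 0.08. By the mean, the kinases had 0.16 and the phosphatases 0.42, a difference of -0.26. The sign of the difference changed between the median and the mean, with *Pdk3* at the low end of one group and *Pdp2* at the high end of the other. The kinases ran from -0.40 to 0.46 and the phosphatases from 0.17 to 0.89, so that the groups overlapped. The arrays give mRNA only, and the phosphorylation of the complex was not measured.

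**Figure D3:**
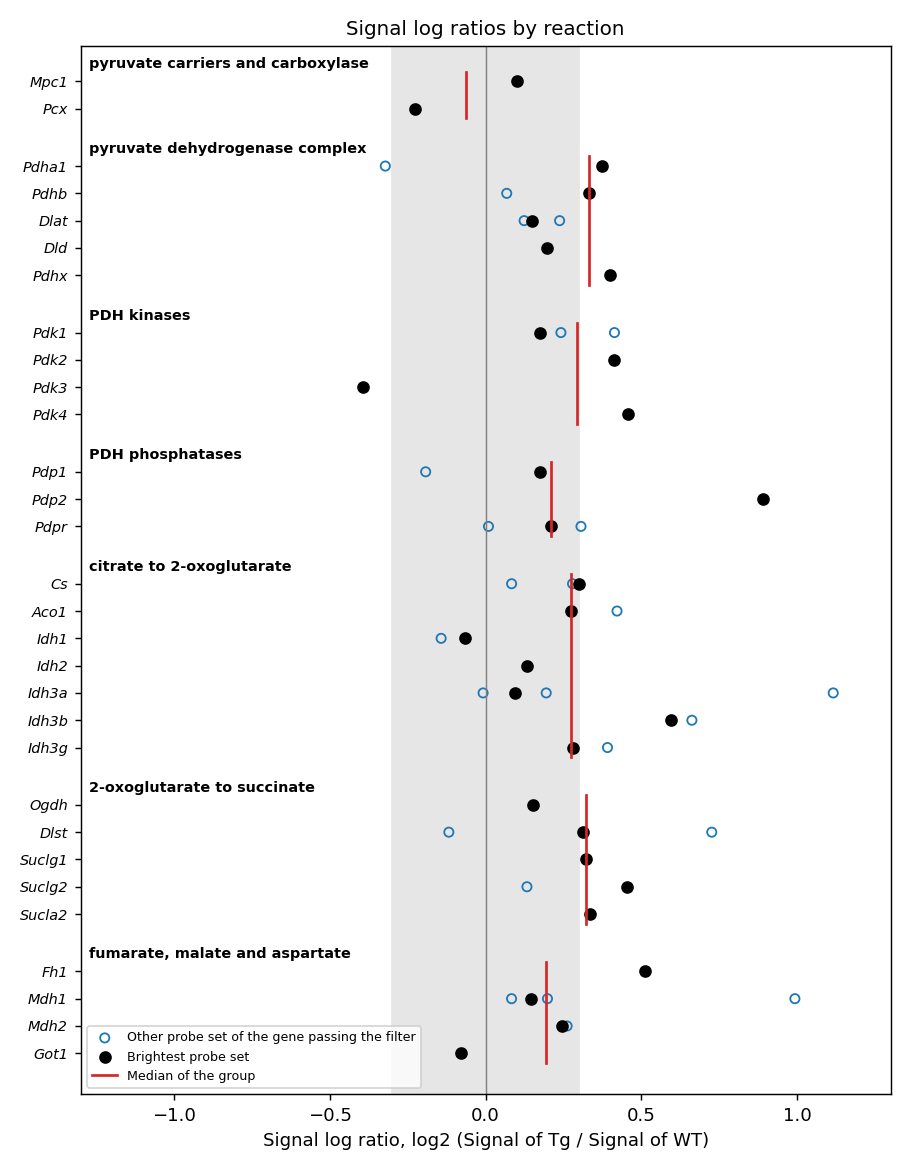
SLR (log2 of Tg over WT) of 30 genes by reaction, with the brightest probe set (black), the other probe sets that passed the filter (open blue) and the median of each group (red bar). The grey band covers -0.3 to 0.3. The group medians of the brightest probe sets run from -0.06 for pyruvate entry to 0.33 for the PDH complex and 0.32 for 2-oxoglutarate to succinate, and the former is 0.20 with the median over probe sets, against 0.31 for the latter. *Pdp2* lies farthest to the right among the black points.

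In the first part of the cycle, from citrate to 2-oxoglutarate, 6 of 7 genes were over 0, 2 were over 0.3, and the median was 0.28. *Idh3b*, a regulatory subunit of the NAD-dependent isocitrate dehydrogenase of the cycle, had 5628 (WT) and 8502 (Tg), an SLR of 0.60, and its next probe set had 2855 (WT) and 4518 (Tg), an SLR of 0.66. It was the only member over 0.3 with several passing probe sets that all exceeded 0.3. The other regulatory subunit, *Idh3g*, had 7123 (WT) and 8658 (Tg), an SLR of 0.28, with 0.39 on its other probe set.
The catalytic subunit of the same enzyme, *Idh3a*, differed less. It had 11597 (WT) and 12379 (Tg), an SLR of 0.09, and its next 2 probe sets had -0.01 and 0.19. A last one, with 50.1 (WT) and 108.6 (Tg), had 1.12 and reached the filter on the Tg array alone.
*Cs*, citrate synthase, which begins the cycle, had 6524 (WT) and 8037 (Tg), an SLR of 0.30, just past the size of 0.3, and its other probe sets had 0.28 and 0.08. *Aco1*, the cytosolic aconitase that also acts as an iron regulatory protein, had 6239 (WT) and 7551.5 (Tg), an SLR of 0.28, with 0.42 on its other passing probe set.
The NADP-dependent isocitrate dehydrogenases lay near 0. *Idh1*, the cytosolic one, had 13058 (WT) and 12474 (Tg), an SLR of -0.07, with -0.14 on its other probe set. *Idh2*, the mitochondrial one, had 2024.5 (WT) and 2219 (Tg), an SLR of 0.13.

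From 2-oxoglutarate to succinate, all 5 genes were over 0 and 4 were over 0.3, with a median of 0.32. *Ogdh*, which encodes the first enzyme of the 2-oxoglutarate dehydrogenase complex, had 2028 (WT) and 2253 (Tg), an SLR of 0.15. *Dlst*, its succinyltransferase core, had 2690.3 (WT) and 3343 (Tg), an SLR of 0.31, and the dimmer probe sets that passed the filter had 0.73 and -0.12.
The 3 subunits of succinyl-CoA synthetase, the step that yields ATP or GTP, were all over 0.3. *Suclg1*, the common α subunit, had 5361 (WT) and 6702 (Tg), an SLR of 0.32. *Sucla2*, the β subunit for ATP, had 6736 (WT) and 8498 (Tg), an SLR of 0.34. *Suclg2*, the β subunit for GTP, had 2415 (WT) and 3307 (Tg), an SLR of 0.45, with 0.13 on its dimmer probe set.

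In the last steps, 3 of 4 genes were over 0 and 1 was over 0.3, with a median of 0.20. *Fh1*, fumarate hydratase, had 5272 (WT) and 7509 (Tg), an SLR of 0.51 on its only probe set, a value above those of 93.9% of all genes. *Mdh2*, the mitochondrial malate dehydrogenase, had 13114 (WT) and 15544 (Tg), an SLR of 0.25, and its other probe set, as bright, had 0.26.
*Mdh1*, the cytosolic malate dehydrogenase, had 13167 (WT) and 14564 (Tg), an SLR of 0.15. Its 2 other bright probe sets had 0.20 and 0.08, and a dim one with 93.9 (WT) and 186.9 (Tg), which reached the filter on the Tg array alone, had 0.99. *Got1*, the cytosolic aspartate aminotransferase of the malate-aspartate shuttle, had 278.5 (WT) and 263.9 (Tg), an SLR of -0.08. The mitochondrial gene had the higher SLR in the pair of NADP-dependent isocitrate dehydrogenases, by 0.20, and in the pair of malate dehydrogenases, by 0.10. Both differences are below 0.30, the pooled SD between probe sets of a member. Pairs in the further lists, set side by side after their values were seen, went both ways on their brightest probe sets. Mitochondrial *Gpt2* had 0.65 and cytosolic *Gpt* -0.49, while mitochondrial *Pck2* had 0.21 and cytosolic *Pck1* 0.45. The order of *Pck2* and *Pck1* depends on the probe set, since their other passing probe sets had -0.14 and -0.80. Mitochondrial *Got2* had -0.06, close to *Got1*, with -0.65 on its other passing probe set.

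**Figure D4:**
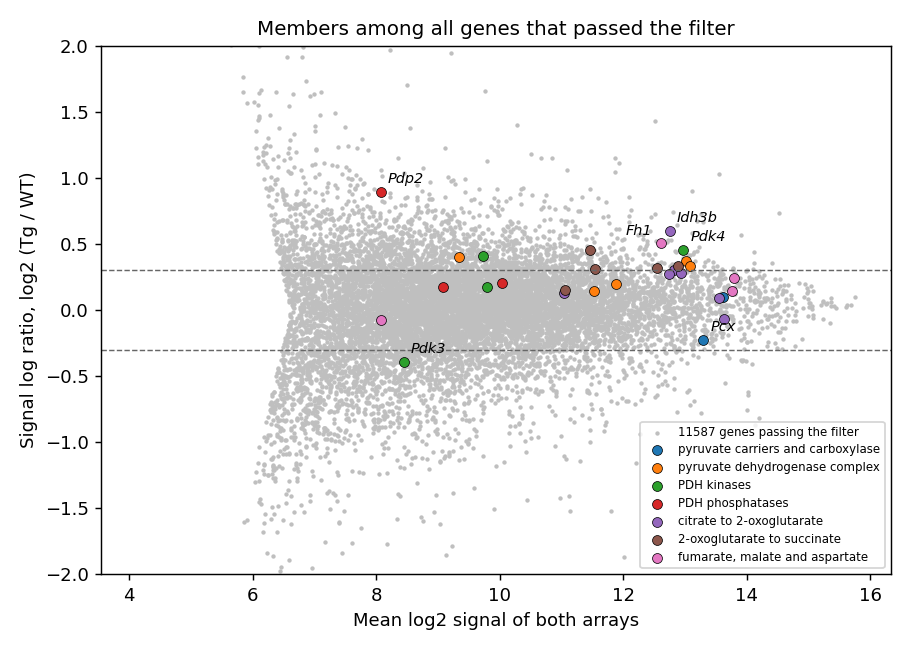
SLR on the vertical axis and the log2 signal averaged over the arrays on the horizontal axis, for the 11587 genes that passed the filter (grey) and the 30 members (coloured by reaction). Dashed lines mark 0.3 and -0.3, and 47 genes lie outside the plotted range of -2 to 2. Most members lie in the bright part of the plot and above 0, and *Pdp2* and *Pdk3* lie at low signals.

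Probe sets of one member did not always give the same direction. Of the 16 members with at least 2 passing probe sets, 4 had values on both sides of 0: *Pdha1*, *Pdp1*, *Dlst* and *Idh3a*. The pooled SD between probe sets was 0.30 over these 16 genes and 0.41 over 5260 genes, and covers readings of the same RNA pools and not mice. Of the 55 passing probe sets of members, 21 were over 0.3, against 17.8% of the 23713 that passed the filter, and 2 were under -0.3, against 21.5%. The 2 that reached the filter on the Tg array alone, of *Idh3a* and *Mdh1*, are among the 21.

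Other genes of the pathway were examined from further lists. Succinate dehydrogenase, which links the cycle to the respiratory chain, had *Sdhb* at 0.38 and *Sdha* at 0.33. These were the only 2 over 0.3 of 8 measured genes of the rest of the cycle and its lipoylation, against 16.6% of all genes. None was under -0.3, against 16.9%. *Lipt1* and *Lias*, which attach and make the lipoyl group of the dehydrogenase complexes, had 0.27 and 0.26, and the median of the list was 0.23.
The related branched-chain keto acid and 2-oxoadipate dehydrogenase genes had a median of 0.37, with 5 of 6 over 0.3, against 16.6% of all genes. *Ppm1k* and *Bckdk*, the phosphatase and the kinase of the branched-chain complex, had 0.53 and 0.52. *Bckdhb* had 0.39, *Dhtkd1*, of 2-oxoadipate oxidation, had 0.35, and *Dbt*, the fifth over 0.3 and named for that after its value was seen, had 0.32. The kinase and the phosphatase of that sister complex thus had nearly the same SLR on their brightest probe sets. Their other passing probe sets differed, with 0.51 for *Bckdk* and 0.25 for *Ppm1k*.
Genes of anaplerosis and of malate and citrate export had values on both sides of 0, with 6 of 14 over 0 and a median of -0.08. Of the 14, 5 were under -0.3, against 16.9% of all genes, and 8 lay between -0.3 and 0.3. Of the 13 that passed the filter on both arrays, 4 were under -0.3, as were 1583 of all 10850 such genes. *Slc25a1*, the mitochondrial citrate carrier, had 5094 (WT) and 3211 (Tg), an SLR of -0.67. *Slc25a10*, the dicarboxylate carrier, had 3311 (WT) and 2426 (Tg), an SLR of -0.45, and *Slc25a13*, an aspartate/glutamate carrier, had -0.89 at low signals of 118.0 (WT) and 63.5 (Tg), reaching the filter on the WT array alone. The malic enzymes *Me1* and *Me2*, named after their values were seen as the rest of the 5, had -0.38 and -0.37. These values depend on the probe set. Other passing probe sets had -0.09 for *Me1*, and -0.02, 0.31 and 0.39 for *Me2*. The only one over 0.3 was *Pck1*, which makes phosphoenolpyruvate for glycerol, at 0.45, with -0.80 on another probe set.

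The pools are whole tissue, so that fewer cells of a type and less RNA per cell cannot be told apart. Adipocyte markers were bright on both arrays, as the label requires, with *Fabp4* at 51832 (WT) and 53339 (Tg), and the median of 9 markers was 0.09. Of 9 brown adipocyte markers that passed the filter, *Dio2* and *Elovl3* did so on the Tg array alone, which fixed their direction. The 7 that passed on both arrays were all over 0.3, against 16.6% of all genes. The summed signal of the 11 with a probe set was 5341 (WT) and 28703 (Tg). *Zic1* and *Lhx8*, which define brown fat between the shoulder blades, did not exceed 13.8. Of 12 macrophage markers, 6 were under -0.3 and none was over 0.3, against 16.9% and 16.6% of all genes. Their summed signals were 62629.9 (WT) and 50519 (Tg). Of 13 skeletal muscle markers, 12 were under 0, most of them at signals near or below the filter. Of the 6 that passed it, 4 did so on the WT array alone, which fixed their direction, and the other 2, *Acta1* and *Eno3*, had -0.03 and -0.21. The medians of 5 endothelial markers and 7 reference genes were -0.08 and 0.03. The part of these cell types in the values of the members was not tested.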

How the data were processed

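Labelled cRNA from 1 pool of RNA per genotype, each from 3 mice, was hybridised to 1 array. The deposited values are intensity signals that the authors obtained with GeneChip Operating Software, and the notes of the submitters name MAS5. It combines perfect-match and mismatch probes into 1 linear signal per probe set and scales each array as a whole. Without the lowest and highest 2%, both arrays had a mean of 500.0. The Present calls of the methods were not used here. They were replaced by a minimum of 98.2, the median of all signals, for the higher signal of a probe set.

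Signal log ratios (SLRs, log2, Tg over WT) were taken from these signals without a pseudocount. Of 45037 probe sets other than the 64 controls, 34945 had 1 symbol in the platform annotation, 932 had several and 9160 were not listed, and only the first kind named genes. No test was possible with 1 array per genotype, and their number limits the precision. All members were named, and up to 4 genes with the largest absolute SLRs of each other pathway list. Any gene named beyond these is marked in the text. The members and lists were chosen with earlier results of these data known. The script was tested on simulated data. Python 3.11.15, numpy 2.4.6, pandas 2.3.3, statsmodels 0.14.6 and matplotlib 3.10.9 were used.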

Additional observations from a re-analysis of the deposited data

How the results depend on the processing

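The direction of the median of the members held under all 11 alternatives, from 0.17 on second-brightest probe sets to 0.34 with the array medians made equal. They comprised median centring, quantile normalization, loess (span 0.3), a pseudocount of 25.1, a floor of 56.9, no filter, a stricter filter at 470.5, the median over probe sets, the brightest probe set without a suffix, the second-brightest probe set and, chosen after the values were seen, equal array medians. The floor and the lack of a filter could not change the median, since all 30 genes reached 98.2 on both arrays. A pseudocount cannot change the sign of an SLR. Median centring and equal array medians subtracted -0.004 and -0.08 from every SLR, and so raised them all. None of these settings could therefore reverse the direction. Against 13 members over 0.3 and 1 under -0.3, there were 4 over on second-brightest probe sets, where 16 members had one and 17% of all genes were over, 0 under with the stricter filter, which *Pdk3* did not pass, and 0 over and 0 under at the sizes of 1 and -1. With probe sets in place of genes there were 21 over and 2 under. Loess gave 9 over, against 17.4% of all genes, and quantile normalization 10, against 18.1%. Equal array medians gave 16, against 24.9%, while the share of higher genes among all genes past either size went from 49.6% to 65.6%. In 6 members, *Pdhx*, *Pdk2*, *Pdk4*, *Pdp2*, *Idh3b* and *Fh1*, every value exceeded 0.3, although *Pdhx*, *Pdk2*, *Pdk4*, *Pdp2* and *Fh1* have 1 probe set each. *Pdha1* was reversed at -0.32 on its second-brightest probe set. The kinases minus the phosphatases lay between 0.08 and 0.33 by the median, and the phosphatase median was -0.09 on second-brightest probe sets. The 0.33 came from these probe sets, with 1 kinase and 2 phosphatase genes. The PDH complex went from 0.33 to 0.20 with the median over probe sets and 0.07 on second-brightest ones. The group from 2-oxoglutarate to succinate then had 0.31 and 0.43, the latter on 2 genes only. Pyruvate entry went from -0.06 to -0.12 (quantile), -0.10 (loess) and 0.02 (equal array medians), and the last steps from 0.20 to 0.03 without suffixed probe sets, which left 2 genes. The cause of these differences was not tested. An SLR or a group median was counted as moved at a shift of over 0.41, the pooled SD among probe sets of a gene, which is wide for a median, and a count at a change of over 1.5 times. No paired analysis was possible because each genotype has 1 array. Low signals limit *Pdp2*, *Pdk3* and *Got1*.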

Other observations

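Genes that supply pyruvate and lactate had values on both sides of 0, with a median of 0.11. Of 8 genes, 3 were over 0.3 and 2 under -0.3, against 16.6% and 16.9% of all genes. *Ldhb*, the lactate dehydrogenase subunit that favours the use of lactate, had 1696 (WT) and 2879 (Tg), an SLR of 0.76. Of the alanine aminotransferases, *Gpt2*, the mitochondrial one, had 2255 (WT) and 3528 (Tg), an SLR of 0.65, and *Gpt*, the cytosolic one, had 3973 (WT) and 2828 (Tg), an SLR of -0.49. *Slc16a7*, a monocarboxylate transporter, had 0.40. The other gene under -0.3, named after its value was seen, was *Pkm*, the pyruvate kinase outside liver, which had 3117 (WT) and 2382 (Tg), an SLR of -0.39.

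Of 14 regulators known for acting on these pathways, 7 were over 0.3 and 1 was under -0.3, against 16.6% and 16.9% of all genes, with a median of 0.25. *Ppara*, a nuclear receptor known for activating *Pdk4*, had 151.2 (WT) and 591.0 (Tg), an SLR of 1.97. *Esrrg*, an estrogen-related receptor, had 1.58, with 37.6 (WT) and 112.3 (Tg), and reached the filter on the Tg array alone, so that its direction was fixed. Of the 13 that reached it on both arrays, 6 were over 0.3. Among these 6, *Gabpa* had 0.34 and *Tfam* 0.30, but another passing probe set of each had -0.28 and -0.55. *Ppargc1a* had 0.47 at low signals of 100.1 (WT) and 138.7 (Tg). Its other passing probe set had 1.01 and reached the filter on the Tg array alone. *Gabpa*, *Tfam* and *Ppargc1a* were named after their values were seen. *Ppargc1b*, a coactivator of mitochondrial genes, had 0.88, and *Pparg* had 0.57. The gene under -0.3, named after its value was seen, was *Esrrb*, at -0.43, with low signals of 136.3 (WT) and 100.9 (Tg). No relation between these genes and the members was tested.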
